A study of Homo sapiens with 3 samples.

Results

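The genes described are 46 that build and police the mitotic spindle: its kinases, the checkpoint proteins, the subunits of the kinetochore and centromere, the kinesin motors, the cytokinesis proteins and the trigger of anaphase. They were taken by gene symbol (current or older) from the platform annotation, and 49 of 18468 named probes read them, so that all 46 were measured among 16225 named genes. RNA came from the embryonic stem (ES) cells of 3 human lines, H9, BG03 and ES01, kept undifferentiated, and each line gave 1 Illumina bead array; the series calls the 3 biological replicates. All were grown on irradiated mouse embryonic fibroblasts (MEFs) in DMEM/F12 with KSR (a serum replacement), BME, NEAA, L-glutamine and FGF2, and the lines form 1 group, with no treatment, genotype or time point set apart. The series also set human cells against mouse ES cells and EpiSCs, which are not analysed here; the comparisons are therefore between the 3 lines.

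Mitosis hands each daughter cell 1 copy of every chromosome. Microtubules of the spindle attach to kinetochores, which are built on centromeric chromatin; kinetochores without a proper attachment keep the spindle checkpoint active, and the checkpoint holds back the anaphase-promoting complex (APC/C) until every chromosome is attached. Most of these genes are transcribed mainly in G2 and M phase, and cultures of human ES cells, which cycle fast with a short G1 phase, hold many dividing cells. In bulk RNA, fewer mitotic cells and less RNA per mitotic cell cannot be told apart.

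Many genes of this class share a pair of promoter elements: the cell cycle genes homology region (CHR), read by the MuvB complexes that repress such genes in resting cells and activate them before mitosis, and the CCAAT box, bound by NF-Y. The 100 bases before the annotated start are shown for 7 members that hold both elements there (the first such member of each role that has one) and for the 4 members that differed most between lines, so that a reader can set the letters of the promoters beside the values below. Sequences are from RefSeq (GRCh38.p14), read 5′ to 3′ on the gene's strand; capitals mark the CHR, searched as either TTTGAA or TTTAAA, and the CCAAT box. Both strands were searched, so a match on the other strand is shown as its reverse complement (ATTGG for the box).
PLK1 (chr16:23678789-23678888, plus strand): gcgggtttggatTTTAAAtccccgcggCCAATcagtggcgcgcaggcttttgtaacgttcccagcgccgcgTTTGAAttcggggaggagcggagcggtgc
ZWINT (chr10:56361260-56361359, minus strand): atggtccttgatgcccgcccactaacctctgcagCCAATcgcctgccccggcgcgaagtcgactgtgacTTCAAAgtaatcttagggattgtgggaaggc
CENPC (chr4:67545504-67545603, minus strand): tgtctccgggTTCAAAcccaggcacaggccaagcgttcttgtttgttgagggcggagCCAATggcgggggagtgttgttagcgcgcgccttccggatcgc
INCENP (chr11:62123911-62124010, plus strand): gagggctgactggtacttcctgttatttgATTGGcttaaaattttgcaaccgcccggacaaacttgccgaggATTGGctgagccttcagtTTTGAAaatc
KIF11 (chr10:92593030-92593129, plus strand): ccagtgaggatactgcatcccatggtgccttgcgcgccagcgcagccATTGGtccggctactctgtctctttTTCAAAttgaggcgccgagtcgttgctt
PRC1 (chr15:90994536-90994635, minus strand): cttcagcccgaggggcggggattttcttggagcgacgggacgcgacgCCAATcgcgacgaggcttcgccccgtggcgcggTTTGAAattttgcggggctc
CDC20 (chr1:43358881-43358980, plus strand): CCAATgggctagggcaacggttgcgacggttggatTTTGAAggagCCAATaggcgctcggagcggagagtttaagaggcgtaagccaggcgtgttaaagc
BUB1 (chr2:110678064-110678163, minus strand): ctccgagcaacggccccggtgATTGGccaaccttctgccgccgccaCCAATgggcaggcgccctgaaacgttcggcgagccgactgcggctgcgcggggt
NUF2 (chr1:163321854-163321953, plus strand): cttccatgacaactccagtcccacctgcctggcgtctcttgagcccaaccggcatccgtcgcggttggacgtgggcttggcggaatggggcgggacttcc
SPC25 (chr2:168890431-168890530, minus strand): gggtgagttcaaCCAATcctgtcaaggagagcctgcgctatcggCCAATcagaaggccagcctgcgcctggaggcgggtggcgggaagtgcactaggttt
ECT2 (chr3:172750626-172750725, plus strand): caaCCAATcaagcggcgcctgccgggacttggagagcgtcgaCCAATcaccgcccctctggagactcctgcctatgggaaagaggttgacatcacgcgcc
In PLK1 a TTTGAA begins 29 bases, the CCAAT 73 bases and a TTTAAA 88 bases before the start. In CDC20 the TTTGAA begins 65 bases before it, 10 bases upstream of the nearer of 2 CCAAT matches. Of the 4 members that differed most between lines, BUB1, SPC25 and ECT2 held 2 CCAAT matches each and no CHR letters in this window, and NUF2 held neither.

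The pair of elements was found in 15 of the 40 members with a promoter in the table (37.5%), against 1.95% of 15842 protein-coding genes with a window of the same length. Taken singly, TTTGAA was found in 16 members (40%, against 4.87%), TTTAAA in 6 (15%, against 4.53%) and CCAAT in 25 (62.5%, against 25.2%). In the longer window of 250 bases the pair was found in 21 of 40 members (52.5%, against 8.90%). Base composition hardly separated the sets, with a median GC content of 62.8% in members and 62.0% in all genes. Matches of different motifs shared bases in 1 member, CDCA8. By role, both elements lay within 100 bases in CDC20, PTTG1 and ESPL1, the 3 genes of the anaphase trigger, and in 5 of 9 kinesins (KIF11, KIF18A, KIF20A, KIF23 and KIF4A), but in 0 of 4 NDC80 complex genes. The 15 genes with both elements had a median log2 SD over the lines of 0.10, and the 25 without the pair 0.13; 14 of 15 and 24 of 25 were above background in all lines. A match is a description of the letters and does not show that a factor binds.

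**Figure D1:**
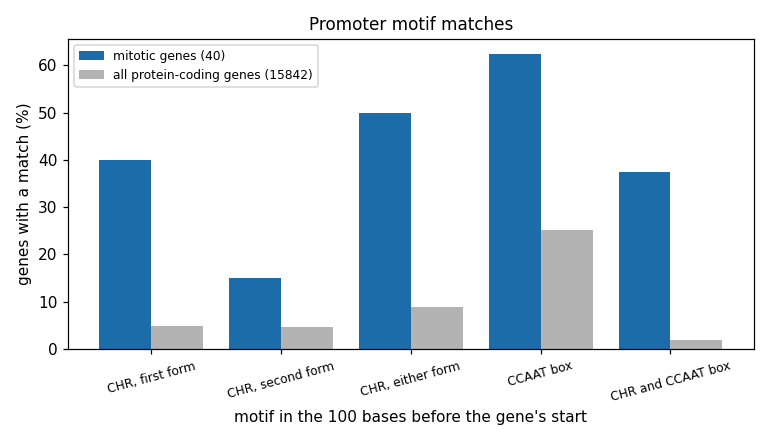
Share of genes (%) with a motif match in the 100 bases before the gene's start, for 40 mitotic genes (blue) and 15842 protein-coding genes (grey); the first and second CHR forms are TTTGAA and TTTAAA. The CHR and CCAAT pair is found in 37.5% of the mitotic genes and 1.95% of all.

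Before the results, the arrays and markers set their limits. Each array carried 2089034 to 2102778 beads, a median of 41 to 43 per bead type, and an intensity counted as above background when it passed the 95th percentile of 215 olfactory receptor probes on that array (11.2 units in H9, 12.6 in BG03 and 13.3 in ES01). Of 10 measured ES cell markers, 9 passed it in all lines (SOX2, read by 1 probe, did not), as did 5 of 12 fibroblast markers and 2 of 12 markers of differentiated cells (AFP and FOXA2). Summed over the list, fibroblast marker intensity was 1276 units in H9, 1328 in BG03 and 1644 in ES01, with COL3A1 and POSTN not above background in any line; the sum for ES cell markers was 24199, 26895 and 31732. The sum for markers of differentiated cells was 406, 563 and 646, with 8 of 12 not above background in any line. A few bright probes carry each sum, so the sums do not give shares of cells. AFP rose in that order (148, 322 and 383), but FOXA2 did not (222, 185 and 195). Of the fibroblast sum, THY1 made up 752, 851 and 824 units and COL1A2 310, 229 and 582. L1TD1, DNMT3B and LIN28A were highest in ES01, while POU5F1 (270, 287 and 195) and ZFP42 (364, 780 and 247) were lowest there. The part of such cells in the differences given here was not tested. No line has a second array, so differences between lines have no test. They are given by size, and an SD is over the 3 lines (n = 3) on the log2 scale, holding line, culture and array together.

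The mitotic genes were read in nearly every case. Of 46 members, 44 passed the threshold in H9, BG03 and ES01 alike (95.7%), against 59.8% of all named genes. SPC25 was above it in H9 and BG03, and INCENP in BG03. Intensities are given after quantile normalization, in arbitrary units that do not compare 1 probe with another.

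**Figure D2:**
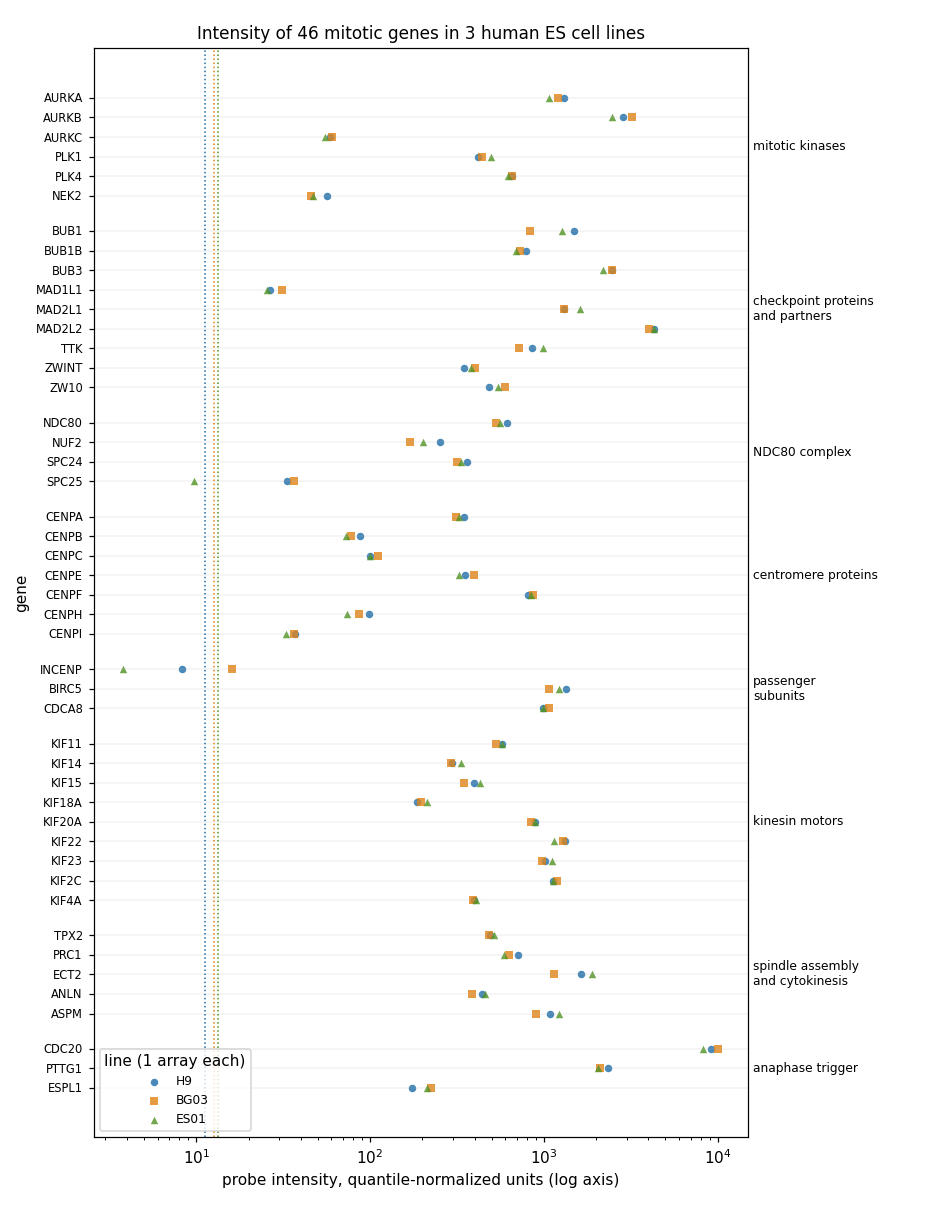
Intensity of each of the 46 genes (rows, grouped by role) in H9, BG03 and ES01, on a log axis of quantile-normalized units; dotted lines mark each array's background threshold, and each point is 1 array. The 3 points of most genes lie close together, SPC25 in ES01 and INCENP in H9 and ES01 lie left of their thresholds, and positions of different genes do not compare their levels.

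Levels of these genes were close between the lines. Only SPC25 differed at least 2-fold between any 2 lines (1 of 46), where 8.29% of the 11004 genes that passed the threshold somewhere did. At 1.5-fold there were 4 members, BUB1, NUF2, SPC25 and ECT2, against 26% of all genes, and 26 of 46 members stayed under 1.2-fold in every pair, against 35%. By pair, 0 members differed 2-fold between BG03 and H9 (3.24% of all genes), 1 between ES01 and H9 (5.14%) and 1 between ES01 and BG03 (3.75%). At 1.5-fold the counts were 2 (11.9%), 1 (16.3%) and 3 (13.4%) in the same order. The 3 pairs share arrays and are not independent. The shares of all genes are not matched for intensity. Of the 11004 genes, 3002 had a mean under 50 units and 1647 a mean over 1000, against 5 and 15 of the 46 members.

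The median log2 SD over the lines was 0.12 for members, with quartiles of 0.09 and 0.16, and 0.19 for all 11004 genes, with quartiles of 0.11 and 0.31. Dim probes vary more, so the spread was also set beside genes of like intensity. For means from 200 to 1000 units the median SD was 0.11 for 21 members and 0.15 for all genes, and 18 of the 21 lay below the median of all. In the class from 50 to 200 units it was 0.10 for 5 members against 0.22, and under 50 units 0.17 for 5 members against 0.27. Above 1000 units the order turned, with 0.14 for 15 members against 0.12 for all genes, and 7 of the 15 lay below the median of all. AURKB, BUB1, MAD2L1, ECT2 and ASPM were among these bright members.

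**Figure D3:**
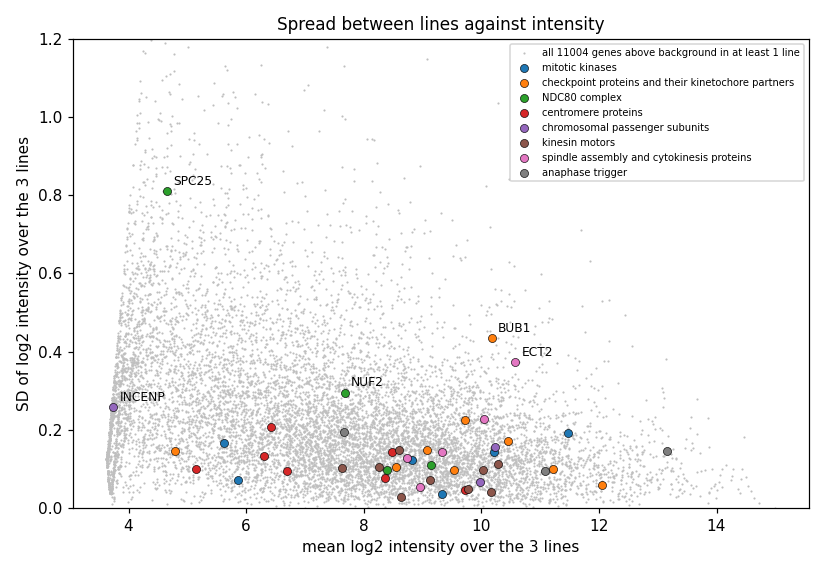
SD of log2 intensity over the 3 lines (vertical) against mean log2 intensity (horizontal) for 11004 genes (grey) and the 46 mitotic genes (coloured by role); 75 genes with an SD over 1.2, and no mitotic gene, lie above the axis. Most coloured points lie low, with SPC25 at 0.81, BUB1 at 0.43 and ECT2 at 0.37.

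Bead error puts a lower limit on what 1 array can show. A gene's bead error was taken from bead types of the same intensity rank on its array, since no table used here ties bead codes to genes. For members above background its median was 0.05 on the log2 scale on every array, and it reached 0.21 in H9, 0.31 in BG03 and 0.21 in ES01 for the dimmest. The difference between BG03 and H9 was over 2 times its bead error for 18 of 45 members above background in both, against 43.3% of all such genes. Between ES01 and H9 it was so for 22 of 44 (52.3%), and between ES01 and BG03 for 18 of 44 (48.7%). These counts compare arrays, not lines.

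No common direction against 0 could be given for the members, because small differences turned with the scaling of the arrays. After quantile normalization 28 of 46 were lower in BG03 than in H9 (46.1% of all genes), with a median log2 difference of -0.04 beside 0.03 for all genes. In the values as deposited 21 were lower (4410 of all 11004 genes), with medians of 0.04 and 0.07. Between ES01 and H9 the median was -0.03 beside 0.01, with 26 lower (48%), and between ES01 and BG03 -0.04 beside -0.01, with 24 lower (50.8%). Arrays scaled to the same median put 45 and 42 of 46 lower in ES01 (medians -0.33 and -0.39), where the median of all genes was itself -0.27 and -0.34. Scaling to the same median shifts members and all genes alike, so it cannot change the gap between their medians seen in the deposited values. The members' median was slightly below that of all genes in each pair after quantile normalization and as deposited. For ES01 minus BG03 it was not so with the 99th percentile background (-0.039 beside -0.044), nor for genes above background in all lines (-0.004 beside -0.022). The counts of higher members were 18, 20 and 22 for the 3 pairs (53.7%, 51.8% and 49.1% of all genes). H9 was the lowest line for 9 members (37.6% of all genes), BG03 for 19 (27.2%) and ES01 for 18 (35%). In the deposited values these counts were 15, 14 and 16 (4656, 2748 and 3579 of all 11004 genes). H9 was the highest line for 17 members (31.9%), BG03 for 15 (31.8%) and ES01 for 14 (36%). INCENP adds to these counts, and its sign between ES01 and H9 comes only from the thresholds put in place of values below them. These thresholds, lowest in H9, also enter the shares and medians of all genes. With 1 floor for all arrays the all-gene median was 0.001 for BG03 minus H9 and 0 for ES01 minus H9. The members' medians stayed at -0.04 and -0.03. The shares by lowest and highest line were not recounted with that floor.

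**Figure D4:**
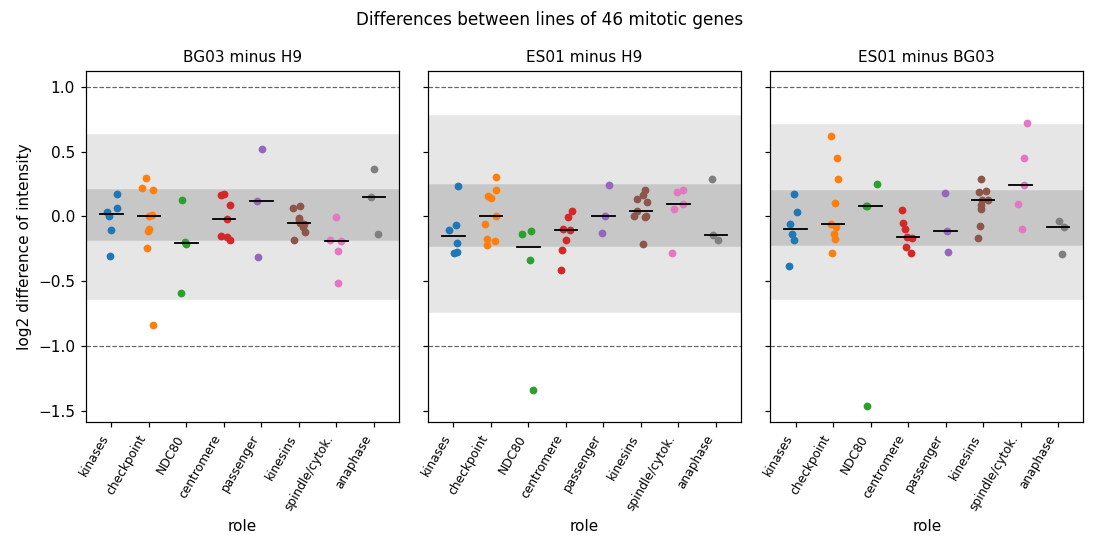
Log2 difference of intensity for each of the 46 genes (points, by role) in the 3 pairs of lines; the black bar is the role's median, dashed lines mark 2-fold, and grey bands hold the 25th to 75th (dark) and 5th to 95th (light) percentiles of all 11004 genes. Only SPC25 lies past 2-fold, at -1.34 and -1.46 in the pairs with ES01.

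The mitotic kinases were alike in the 3 lines. PLK4, which sets off centriole duplication, was the steadiest, with 653 in H9, 652 in BG03 and 625 in ES01 (log2 SD 0.04). AURKB, the kinase of the chromosomal passenger complex, had the widest spread of the 6, with 2846 in H9, 3216 in BG03 and 2470.4 in ES01 (log2 SD 0.19). It was highest in BG03, and its difference between ES01 and BG03 (-0.38) lay well beyond the bead error of 0.06. AURKA, the kinase of centrosomes and spindle poles, measured 1303, 1213 and 1069.7 in the order H9, BG03, ES01, and PLK1, which acts from mitotic entry to cytokinesis, 421, 439.6 and 496. AURKC, best known for its part in meiosis of germ cells, was above background in every line (59.2, 60.5 and 55.1), as was the centrosome kinase NEK2 (56.5, 45.8 and 46.8). Of the 6 kinases, 5 were lower in ES01 than in H9 and 1, PLK1, was higher, where 48% of all genes were lower; the same split held in the deposited values. With arrays scaled to the same median 6 were lower, as were 8709 of all 11004 genes.

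Among checkpoint genes, BUB1 stood apart. This kinase, which marks centromeric chromatin and recruits other checkpoint proteins, measured 1483 in H9, 831 in BG03 and 1274 in ES01 (log2 SD 0.43). BG03 was the low line, 1.79-fold below H9, and it was lowest under all 3 scalings. Its log2 difference from H9 was -0.84 after quantile normalization and -0.74 in the deposited values. Scaling to the same median leaves that difference as deposited, because H9 and BG03 share a column median of 3.5. Bead error for that difference was 0.06. BUB1B (BUBR1), a subunit of the mitotic checkpoint complex, did not share the pattern, with 792 in H9, 733 in BG03 and 694 in ES01, and neither did their partner BUB3, with 2469 in H9, 2470.4 in BG03 and 2191 in ES01. TTK (MPS1), the kinase at the head of the checkpoint, was lowest in BG03 and highest in ES01, at 857 in H9, 722 in BG03 and 986 in ES01 (log2 SD 0.22). MAD2L1, which inhibits CDC20 when activated at kinetochores, was highest in ES01, at 1304 in H9, 1313 in BG03 and 1606 in ES01; the probe for MAD1L1, its binding partner there, was dim at 26.7, 31.1 and 25.7. The smallest spread of the 9 was that of MAD2L2 (4325, 4034 and 4333, log2 SD 0.06), a relative of MAD2L1 that works mainly in DNA repair. ZW10, a subunit of the complex that brings dynein to kinetochores, and ZWINT, its anchor, were lowest in H9, with 487, 598 and 543 and 347, 399.8 and 383. This order held in the deposited values. With arrays scaled to the same median ES01 was the lowest line for 6 of the 9 checkpoint genes, as for 7950 of all 11004 genes. TTK was then highest in H9 and MAD2L1 in BG03.

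The 4 subunits of the NDC80 complex, the main microtubule coupler of the kinetochore, held both the largest difference and some small ones. SPC25 measured 33.5 in H9, 36.5 in BG03 and 9.67 in ES01, where the ES01 value is not above background. It was at least 2.52-fold lower in ES01 than in H9 and at least 2.75-fold lower than in BG03, taking the ES01 threshold in place of the value. The probe is dim in every line, and the bead error of its ES01 value was 0.42 on the log2 scale. With the 99th percentile of the olfactory receptor probes as background, the bound set by the threshold fell under 2-fold (log2 -0.64 and -0.77). Its partner in the complex, SPC24, measured 363 in H9, 318 in BG03 and 335 in ES01 (log2 SD 0.10), within 1.2-fold. NDC80 itself was at 615 in H9, 529 in BG03 and 559.7 in ES01. NUF2 was highest in H9, at 254 in H9, 169 in BG03 and 201 in ES01 (log2 SD 0.30), 1.5-fold above BG03. A second NUF2 probe, made for 1 isoform, gave another order, with 39.9, 45.9 and 28.6, so that BG03 was the lowest line at 1 probe and the highest at the other. NDC80, NUF2 and SPC24 were lowest in BG03 and highest in H9 after quantile normalization and as deposited. With arrays scaled to the same median they were lowest in ES01, as were 7950 of all 11004 genes.

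Centromere proteins differed little. CENPF, a large protein of the outer kinetochore and nuclear envelope, measured 815 in H9, 868 in BG03 and 838 in ES01 (log2 SD 0.05), and CENPA, the histone H3 variant that defines the centromere, 347 in H9, 313 in BG03 and 324 in ES01 (log2 SD 0.08). CENPH had the widest spread of the 7, with 98.0 in H9, 86.6 in BG03 and 73.6 in ES01 (log2 SD 0.21). It was lowest in ES01, 1.33-fold below H9. CENPI, which sits with CENPH in the inner kinetochore, was dim and close to even at 37.1, 36.5 and 32.7. CENPC, which ties CENPA nucleosomes to the outer kinetochore, measured 99.7, 112 and 99.5, and CENPB, which binds centromeric repeat DNA, 87.3, 78.1 and 72.8. The kinesin CENPE was highest in BG03, at 352, 397 and 326. ES01 was below BG03 for 6 of the 7 genes (50.8% of all genes), with a median log2 difference of -0.16 (beside -0.01 for all genes). In the deposited values 6 were lower too (5659 of all 11004 genes), and 7 with arrays scaled to the same median (9144 of them).

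The chromosomal passenger complex corrects wrong attachments and moves to the midzone in anaphase. BIRC5 (survivin) measured 1335 in H9, 1077 in BG03 and 1222 in ES01 (log2 SD 0.16) and CDCA8 (borealin) 986 in H9, 1068 in BG03 and 986 in ES01 (log2 SD 0.07). INCENP, the scaffold that binds AURKB, was read at 8.23 in H9, 16.0 in BG03 and 3.80 in ES01 by a single probe, above background in BG03 alone. BG03 was at least 1.43-fold above H9 and at least 1.21-fold above ES01. The log2 differences were 0.52 for BG03 minus H9 and -0.27 for ES01 minus BG03, both bounds set by the thresholds. Their bead errors of 0.60 and 0.89 come from the dim values themselves. The bounds and these errors do not compare, so whether the lines differ at this probe was not tested. Whether that probe reads the transcript well was not checked, so the dim signal does not show that INCENP is low.

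The kinesin motors varied little, with a median log2 SD of 0.10 over 9 genes and a highest of 0.15. KIF4A, a motor on chromosome arms and in the midzone, had the smallest spread of all 46 members, with 396 in H9, 392 in BG03 and 408 in ES01 (log2 SD 0.03). KIF2C (MCAK), which takes microtubules apart at the centromere, measured 1130.2 in H9, 1185 in BG03 and 1125 in ES01, and KIF20A, a motor of the midzone, 889.9 in H9, 841 in BG03 and 893 in ES01. No difference of these 3 between lines exceeded 2 times its bead error. KIF11 (Eg5), which pushes spindle poles apart, was at 577, 529.6 and 577, and KIF15, a motor that can stand in for it, had the widest spread at 396, 349 and 427. KIF22, a chromosome arm motor, was lowest in ES01 (1329, 1283 and 1145), while the cytokinesis motors KIF14 (297, 291 and 332) and KIF23 (1020.2, 981 and 1119.5) and the chromosome-aligning KIF18A (186, 196 and 214) were highest there; with arrays scaled to the same median all 9 kinesins were lower in ES01 than in H9 (8709 of all 11004 genes) and BG03 (9144 of them). Of the 9, 7 were lower in BG03 than in H9 after quantile normalization (46.1% of all genes) and 2 in the deposited values (4410 of all 11004 genes). A KIF23 probe made for 1 isoform was highest in H9 instead, with 69.5, 46.7 and 48.6. KIF4A has a near-identical copy elsewhere in the genome, KIF4B, whose transcript its probe may share.

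Spindle assembly and cytokinesis genes tended to be lowest in BG03. ECT2, which activates RhoA at the division plane, measured 1639.7 in H9, 1146 in BG03 and 1893 in ES01 (log2 SD 0.37). ES01 was 1.65-fold above BG03, with a log2 difference of 0.72 and a bead error of 0.06. BG03 was the lowest line under all 3 scalings, though scaling to the same median leaves its deposited difference from H9 (-0.41) unchanged. ASPM, a spindle pole protein, had the same order of lines, with 1079.8 in H9, 898 in BG03 and 1229 in ES01 (log2 SD 0.23), as did ANLN, the scaffold of the contractile ring, with 441 in H9, 388 in BG03 and 459 in ES01. PRC1, which bundles midzone microtubules, was highest in H9, with 713, 629 and 587. TPX2, which activates AURKA on the spindle, was nearly level at 488, 486 and 520.0 (log2 SD 0.05). BG03 was the lowest line for 4 of these 5 genes, against 27.2% of all genes. It was lowest for 3 in the deposited values (2748 of all 11004 genes) and for 2 with arrays scaled to the same median (1171 of them).

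The anaphase trigger frees sister chromatids once the checkpoint is met. CDC20, the activator of the APC/C, measured 9107 in H9, 10086 in BG03 and 8239.8 in ES01 (log2 SD 0.15). PTTG1 (securin), the inhibitor that CDC20 sends for destruction, was at 2329 in H9, 2114 in BG03 and 2058 in ES01 (log2 SD 0.09), and ESPL1 (separase), the protease it holds back, at 174 in H9, 224 in BG03 and 212 in ES01 (log2 SD 0.19). ESPL1 was lowest in H9, where PTTG1 was highest; the largest fold between lines was 1.29 for ESPL1 and 1.13 for PTTG1. With arrays scaled to the same median ES01 was the lowest line for all 3 genes, as for 7950 of all 11004 genes. PTTG1 has close copies in the genome (PTTG2 and PTTG3P) that its probe may share.

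Other genes of the same machinery were set beside the members. Of 29 other kinetochore and centromere genes 27 were above background in all lines, of 35 other spindle and cytokinesis genes 33, of 17 APC/C genes 16, of 24 genes of mitotic entry and G2/M transcription 24, of 19 cohesin and condensin genes 18 and of 30 replication genes 28. The share of all named genes was 59.8%. KNL1, the scaffold on which BUB1 and BUB1B assemble, was not above background in any line at its single probe, nor was NUMA1, the spindle pole protein; neither probe was checked. The median log2 SD was 0.14, 0.14, 0.11, 0.21, 0.15 and 0.12 for these lists, beside 0.12 for the 46 members. The widest was that of mitotic entry and G2/M transcription genes. Among these, the kinase MASTL (Greatwall), which holds off the phosphatase that undoes mitotic phosphorylation, measured 723, 391 and 430.1 in H9, BG03 and ES01.

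**Figure D5:**
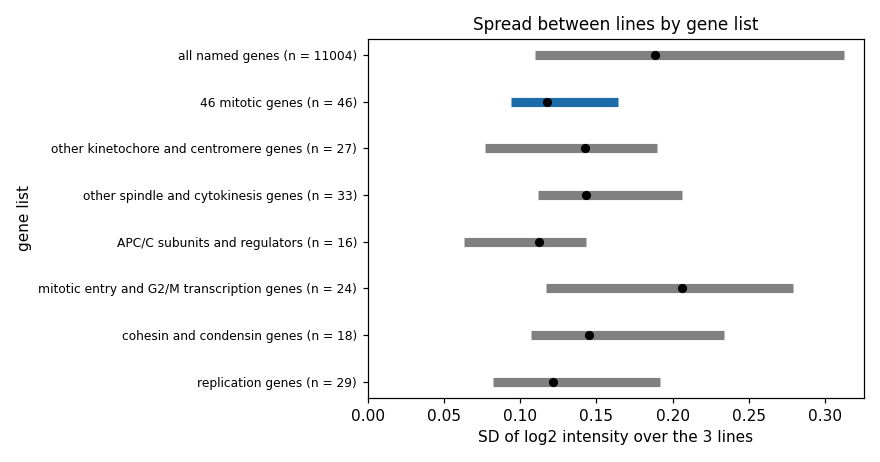
SD of log2 intensity over the 3 lines for each gene list: dots are medians, bars run from the 25th to the 75th percentile, and n counts genes above background in at least 1 line. The 46 mitotic genes (blue) have a median of 0.12, all genes 0.19, and genes of mitotic entry and G2/M transcription 0.21.

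In these 6 lists 1 gene differed at least 2-fold between lines, where 8.29% of all 11004 genes did. HAUS6, a subunit of the augmin complex that branches spindle microtubules, measured 95.4, 48.3 and 106 in H9, BG03 and ES01, lowest in BG03 like BUB1 and ECT2. Between BG03 and H9 the median log2 difference was -0.13 for other kinetochore genes (19 of 27 lower), -0.08 for other spindle genes (23 of 33 lower), -0.04 for the members and 0.12 for replication genes (19 of 29 higher), beside 0.03 for all genes (46.1% lower and 53.7% higher). In the deposited values these medians were -0.03, 0.00, 0.04 and 0.21, beside 0.07. The medians of other kinetochore genes, of other spindle genes and of the members lay below that of all genes in both. Only that of other kinetochore genes was below 0 in both. The replication median was the highest of these 4 in both, but the remaining lists did not all lie low: after quantile normalization the median was 0.11 for cohesin and condensin genes (10 of 18 higher), 0.04 for APC/C genes (10 of 16 higher) and 0.00 for genes of mitotic entry and G2/M transcription (12 of 24 higher).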

How the data were processed

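The authors' deposited value table gives 1 intensity per probe and array, on a linear scale with background subtracted, as values below 0 show (33.8%, 32.8% and 26.3% of them in H9, BG03 and ES01). What software made them, and whether arrays were scaled to each other, is not given in the sources used here. Per the labels' protocols, TRIzol RNA was labelled with Cy3. The deposited bead files hold 1 green intensity per bead, per the file headers; within a bead type, outlying beads (more than 3 median absolute deviations off the median) were dropped.

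Probes were named through the platform annotation and, for 18451 of 18468 named probes (28825 are unnamed here), updated by gene ID with RefSeq's GRCh38.p14 table. All but 4 bacterial control probes were quantile-normalized. For the 1614 genes with several probes the one with the highest mean was used. Values under an array's background threshold were set to it before log2 was taken, and differences used the 11004 genes with a value over it in 1 line or more. Bead error is the mean standard error over the 100 bead types on either side of the probe's rank. Python 3.11.15, numpy 2.4.6, pandas 2.3.3 and matplotlib 3.10.9 were used, and the steps were tested on simulated data.

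Replicate numbers only name the lines. All members are accounted for; values are printed for those past 1.5-fold, the widest and narrowest of each role and others that show a role, and pathway genes past 2-fold are named. MASTL, KNL1 and NUMA1 were chosen after their values were seen. Members and lists were chosen with earlier results of these data known. Alternatives covered scaling, background, probe rule, floor, filter, fold threshold and leaving out each line. Protein motifs were planned and not run, as no protein table was used here.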

Additional observations from a re-analysis of the deposited data

How the results depend on the processing

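The count of members above background in all lines was 43 with the dimmest probe of each gene and 44 under the other 5 alternatives to scaling, background and probe rule, and 44 to 45 when 1 line was left out. Scaling keeps the order of probes within an array, and the background is a percentile of probes on it. The scaling alternatives could therefore hardly change this count and lend it no weight. The 2-fold counts for ES01 against H9 and against BG03, which are SPC25 in both, were 0 and 0 with the 99th percentile background, with a floor of 50 units and when genes had to pass the threshold everywhere. The first lowers the bound for SPC25 below 2-fold through a higher threshold, the second lifts all values of SPC25 to the floor, and the third leaves it out. At 1.5-fold the counts were 2 for BG03 against H9, 1 for ES01 against H9 and 3 for ES01 against BG03. Arrays scaled to the same median moved the members' median difference to -0.33 for ES01 against H9 and -0.39 for ES01 against BG03, as it moved all genes, and the median SD of members to 0.23, with 0.26 for all genes. That scaling rests on column medians of 3.5, 3.5 and 4.4 units, under every background threshold. With 1 line left out the median SD was 0.11 each time. Each median difference kept its sign, but the remaining pair keeps both its arrays, so this was nearly set in advance. NUF2 at its dimmer probe differed by 0.20 between BG03 and H9 instead of -0.59. Of 165 pathway genes, 148 were above background in all lines (59.8% of all named genes), and 138 to 149 under the alternatives. Running the alternatives for this count, for the signs of the members and for the 5 members SPC25, BUB1, ECT2, NUF2 and INCENP was decided after seeing the data. No paired analysis was possible because the lines form 1 group and their numbers follow the order of deposit. Precision is limited by 1 array per line; dim probes such as INCENP, SPC25 and MAD1L1 carry larger bead errors than bright ones, 0.52 for INCENP in H9 and 0.83 in ES01 on the log2 scale against a median of 0.05 for members above background.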

Other observations

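Genes that serve chromosomes in meiosis alone gave another picture than the mitotic genes. Of 11 measured, 2 were above background in all 3 lines, REC8 and DMC1, against 59.8% of all genes. REC8, the meiotic cohesin subunit, measured 54.6, 452 and 606 in H9, BG03 and ES01, so that ES01 was 11.1-fold above H9 with 1 array each. DMC1, the meiotic strand exchange protein, measured 931, 699.5 and 1179.5. STAG3, the partner of REC8 in meiotic cohesin, stayed below the threshold in H9 (10.5); BG03 gave 18.6 and ES01 31.9, the latter at least 2.85-fold higher than H9. SYCP1 passed the threshold in ES01 and SYCP2 in BG03, both narrowly, while SYCP3, SMC1B, HORMAD1, HORMAD2, SPO11 and TEX11 were not above background in any line. Each gene but SPO11, which has 2, was read by 1 probe, and no probe was checked for reading its transcript. For comparison, the mitotic cohesin subunit RAD21 measured 1665, 1412 and 1898 in the same order.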
